A study of Mus musculus with 13 samples.

Results

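Cadherins, catenins and nectins form the adherens junction, the belt of contacts that holds epithelial cells together. Classical cadherins are membrane proteins that bind their like on the neighbouring cell, and their cytoplasmic tails bind p120-catenin and beta-catenin, with alpha-catenin as the link to actin. Nectins are immunoglobulin-like adhesion molecules that bind each other across the cell gap and are tied to actin by afadin. In the enamel organ, the dental epithelium that forms enamel, these contacts join ameloblasts to each other and to the stratum intermedium, the cell layer behind them. Beta-catenin also carries the Wnt signal to the nucleus.

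The 10 genes described here were chosen by symbol among the 48709 mouse genes of the count table. They are the cadherin genes Cdh1, Cdh2 and Cdh3, the catenin genes Ctnna1, Ctnnb1 and Ctnnd1, the nectin genes Nectin1, Nectin3 and Nectin4, and the afadin gene Afdn. All 10 were found under their current symbol, and all 10 passed the filter on low counts, as did 16328 genes in all. RNA was sequenced from enamel organs of mandibular incisors of mice at postnatal day 11. Mice with 1 allele of the Tgfbr2 substitution G357W, a model of Loeys-Dietz syndrome type II that keeps a wild-type copy of the receptor gene (Het, n = 5), were set against wild-type littermates (WT, n = 8). The study names 5 and 8 mice, so each library was taken as 1 mouse.

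Total counts were 20266079 to 26122340 in Het libraries and 18852382 to 26508410 in WT libraries. The 10 genes together took 0.0684% to 0.0914% of the counts of a library, and the count of any 1 of them in a library was 83 to 6860. Markers of secretory-stage ameloblasts summed to 195460 to 281860 CPM (counts scaled to the library total) in Het and 147560 to 290340 CPM in WT, far above the markers of any other cell type looked at. Markers of maturation-stage ameloblasts summed to 29738 to 54599 CPM in Het and 43941 to 58993 CPM in WT. Of these, 15 of 16 had a negative log2 fold change, against 50.9% of all genes. None passed the threshold (edgeR), while 6 of the 16 had an unadjusted p under 0.05, against 6.9% of all genes. Markers of osteoblasts and bone were negative in 10 of 10, and those of odontoblasts and pulp in 8 of 10. Those of endothelium were positive in 7 of 10. The part of these differences in the values below was not tested. The labels call the material dental epithelial cells, yet markers of fibroblasts and mesenchyme were present as well, with summed levels of 4526 to 10074 CPM in Het and 5553 to 12109 CPM in WT, and none of the 14 markers was at 0 in every library. In RNA from whole organs, fewer cells of a type and less RNA per cell cannot be told apart. The column names of the libraries hold a number before a hyphen, called the library prefix here, whose meaning the sources used here do not give. There were 1 Het and 3 WT libraries with prefix 1, 2 Het and 3 WT with prefix 4, and 2 of each genotype with prefix 5.

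Whether the RefSeq table (build GRCm38.p6) holds a promoter for each of the 10 genes is not reported here. Promoters of 5 of the 10 were taken from it. Of these, 4 are shown here, because Ctnnb1 and Ctnnd1 differed between library prefixes in the same direction and Nectin3 and Nectin4 had the smallest p between the genotypes, with opposite signs. Each runs from 250 bases before the start site to 50 bases from it on, 5′ to 3′ on the gene's strand, and capitals mark the GC box GGGCGG on either strand. The windows are chr9:120933150-120933449 on the plus strand for Ctnnb1, chr2:84650691-84650990 on the minus strand for Ctnnd1, chr16:46496918-46497217 on the minus strand for Nectin3 and chr1:171369923-171370222 on the plus strand for Nectin4.
Ctnnb1: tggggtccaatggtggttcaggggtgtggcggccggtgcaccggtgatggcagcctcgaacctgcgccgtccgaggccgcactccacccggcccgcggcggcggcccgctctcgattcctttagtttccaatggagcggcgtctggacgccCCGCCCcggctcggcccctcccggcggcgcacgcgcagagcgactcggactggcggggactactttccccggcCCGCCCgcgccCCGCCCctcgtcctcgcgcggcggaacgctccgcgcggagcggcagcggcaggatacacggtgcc
Ctnnd1: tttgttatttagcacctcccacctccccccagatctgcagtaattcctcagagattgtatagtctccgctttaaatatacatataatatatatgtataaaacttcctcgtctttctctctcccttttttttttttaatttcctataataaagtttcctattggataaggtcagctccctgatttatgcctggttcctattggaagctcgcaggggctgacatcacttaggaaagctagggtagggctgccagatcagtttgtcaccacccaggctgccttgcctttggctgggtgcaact
Nectin3: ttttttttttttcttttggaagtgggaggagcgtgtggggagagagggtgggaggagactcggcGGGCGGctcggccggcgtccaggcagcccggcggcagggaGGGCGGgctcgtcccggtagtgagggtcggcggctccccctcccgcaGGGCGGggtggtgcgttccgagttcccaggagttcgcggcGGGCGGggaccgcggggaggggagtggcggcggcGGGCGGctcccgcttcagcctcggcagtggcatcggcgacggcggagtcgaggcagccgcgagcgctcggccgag
Nectin4: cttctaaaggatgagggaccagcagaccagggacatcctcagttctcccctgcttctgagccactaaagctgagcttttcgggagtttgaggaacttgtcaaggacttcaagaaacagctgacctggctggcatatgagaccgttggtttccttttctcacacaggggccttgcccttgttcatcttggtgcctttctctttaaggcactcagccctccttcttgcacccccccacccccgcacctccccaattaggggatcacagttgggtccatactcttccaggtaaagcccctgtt

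The windows of Ctnnb1 and Nectin3 are rich in G and C, at 75.3% and 73.7%, and hold 3 and 5 GC boxes. Those of Ctnnd1 and Nectin4 had 42.7% and 53.3% G and C and held no GC box. Of 32851 mouse promoters of the same length, 35.7% hold at least 1. The E-box CACCTG, a sequence bound by Snail and Zeb repressors, was searched on both strands too. It was in none of the 4 windows and in 20.2% of all promoters. A match or its lack describes these letters and says nothing of binding. The RefSeq table holds 2 starts each for Ctnnb1 and Ctnnd1, of which 1 is shown for each gene. The start used for Nectin4 lies 74 bases from the nearest GENCODE start.

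Levels of different genes were compared per kb of exon model (the union of the gene's annotated exons), as CPM per kb. The alpha-catenin gene Ctnna1 stood highest, with 36.3 ± 3.91 CPM per kb in Het and 34.6 ± 4.75 in WT (SD over 5 and 8 libraries). Ctnnb1 followed with 26.5 ± 4.21 in Het and 24.7 ± 3.76 in WT. The next pair in order, Cdh1 and Nectin4, did not stand apart: Cdh1 was above Nectin4 in 7 of 13 libraries. Cdh1 had 16.3 ± 2.52 CPM per kb in Het and 18.9 ± 5.05 in WT, and Nectin4 had 19.5 ± 4.04 in Het and 16.03 ± 3.63 in WT.

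Among the cadherins, the level per kb of Cdh3 was 8.60 ± 0.934 CPM per kb in Het and 8.58 ± 1.20 in WT, and that of Cdh2 was 5.17 ± 1.05 in Het and 4.597 ± 0.966 in WT. The range of Cdh3 over all libraries lay wholly above that of Cdh2, the only neighbours of the order whose ranges did not overlap. Nectin3, with 8.99 ± 1.62 CPM per kb in Het and 10.5 ± 1.26 in WT, was above Cdh3 in 10 of 13 libraries. Afdn had 3.71 ± 0.392 in Het and 3.77 ± 0.481 in WT. Ctnnd1 came next with 2.43 ± 0.568 in Het and 2.44 ± 0.514 in WT, and Nectin1 was lowest with 1.44 ± 0.683 in Het and 1.72 ± 0.580 in WT. The mean of Ctnna1 over all libraries was at the 93.9th percentile of the genes tested and that of Nectin1 at the 40.8th. The level of Ctnnd1 is uncertain, since 61.2% of its exon bases are shared with an annotated gene on the same strand, Gm28635, which had 0 counts in every library. The sources used here do not say how reads that fall on both genes were counted.

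**Figure D1:**
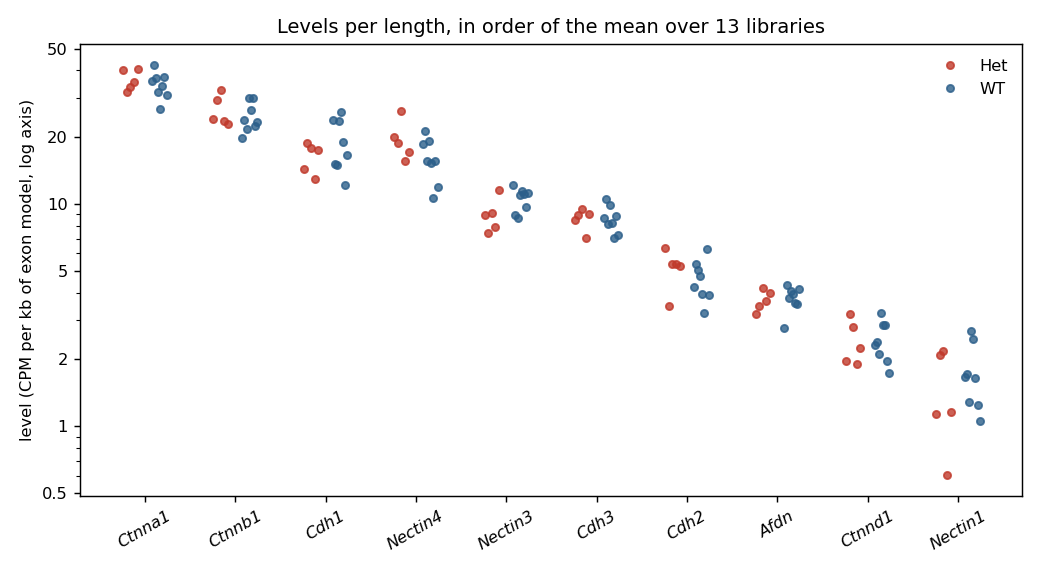
Level of each gene per kb of exon model (log axis), with 1 point per library and genes in order of their mean over 13 libraries. The order runs from Ctnna1 at the top to Nectin1 at the bottom, and Het and WT points overlap for every gene.

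The comparison of the genotypes asks whether the genes of these contacts differ in the enamel organ of Het mice. Counts of Y-linked genes were present in 3 of 5 Het and 3 of 8 WT libraries, so the sexes were not split evenly between the genotypes. None of the 10 genes passed the threshold of 0.05 on the adjusted p (edgeR, quasi-likelihood test, Benjamini-Hochberg over 16328 genes), where 0.0857% of all genes did. None had an unadjusted p under 0.05 either, where 6.9% of all genes had, and DESeq2 and limma-voom called none. The Het and WT ranges overlapped for all 10, as they did for all but 0.49% of the genes tested. Log2 fold changes were positive for 5 and negative for 5 (50.9% of all genes were negative), with a median of -0.0014, against -0.0044 over all genes. All values below are log2 CPM, and the Het values are given for libraries 1-2, 4-2, 4-5, 5-5 and 5-6 in that order.

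**Figure D2:**
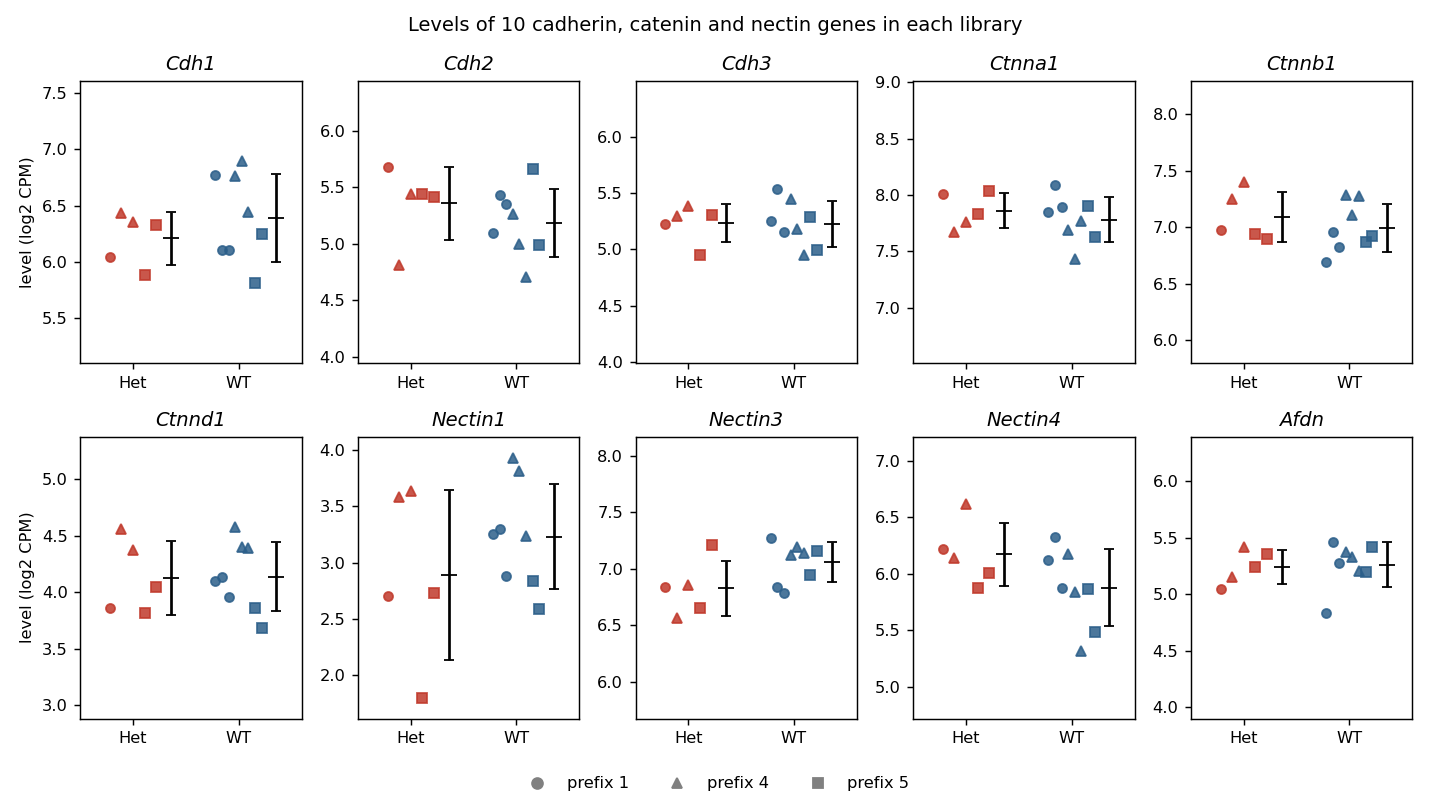
Level (log2 CPM) of the 10 genes in each library, with Het left of WT, the library prefix as the symbol and the mean ± SD in black (n = 5 Het and 8 WT). Every panel spans the same height, and the Het and WT points overlap in each.

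Cdh1 (ENSMUSG00000000303, chr8:106603351-106670246) encodes E-cadherin, the main cadherin of epithelia. It had 6.05, 6.43, 6.35, 5.89 and 6.33 in the Het libraries, and 5.81 to 6.90 with a median of 6.34 in WT. The WT libraries spread more widely than the Het libraries and enclosed all of them, with WT 4-3 highest and WT 5-1 lowest. The mean was 6.21 ± 0.23 in Het (SD of 5 libraries) and 6.39 ± 0.39 in WT (SD of 8 libraries), with a log2 fold change of -0.22 ± 0.16 (SE) and a 95% interval of -0.56 to 0.13 (edgeR adjusted p = 0.830). The differences within prefixes 1, 4 and 5 were -0.28, -0.31 and 0.08.

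Cdh2 (ENSMUSG00000024304, chr18:16588877-16809246) encodes N-cadherin, named for neural tissue and found in many mesenchymal cells and in ameloblasts. Its values were 5.68, 4.81, 5.45, 5.44 and 5.41 in Het, and 4.70 to 5.66 with a median of 5.18 in WT. Of the Het libraries 4 lay close together and Het 4-2 stood below them. The log2 fold change was 0.17 ± 0.15 (SE), with a 95% interval of -0.15 to 0.49 (edgeR adjusted p = 0.849). The difference was positive in each prefix, at 0.39, 0.14 and 0.10.

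Cdh3 (ENSMUSG00000061048, chr8:106510891-106557297) encodes P-cadherin of basal epithelial cells and lies 46.1 kb before Cdh1 on the same strand. It had 5.22, 5.29, 5.38, 4.95 and 5.30 in Het, and 4.95 to 5.53 with a median of 5.22 in WT. The genotypes had nearly the same mean, 5.23 ± 0.17 in Het and 5.22 ± 0.20 in WT, and the log2 fold change was 0.0023 ± 0.11 (SE, 95% interval -0.23 to 0.23, edgeR adjusted p = 0.998). The 95% interval leaves room for a 1.18-fold higher or a 0.853-fold level in Het.

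Ctnna1 (ENSMUSG00000037815, chr18:35118859-35254779) encodes alpha-E-catenin, the link to actin. Its values were 8.01, 7.67, 7.76, 7.83 and 8.03 in Het, and 7.43 to 8.09 with a median of 7.81 in WT. The Het values fell inside the WT range, and the log2 fold change was 0.07 ± 0.11 (SE, 95% interval -0.16 to 0.31, edgeR adjusted p = 0.921).

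Ctnnb1 (ENSMUSG00000006932, chr9:120929216-120960507) encodes beta-catenin. It lies 4.75 Mb beyond the end of Tgfbr2, the mutated gene, on the same chromosome. It had 6.97, 7.25, 7.40, 6.94 and 6.90 in Het, and 6.69 to 7.29 with a median of 6.94 in WT. In each genotype the prefix 4 libraries were the high ones. The log2 fold change was 0.10 ± 0.12 (SE, 95% interval -0.15 to 0.35, edgeR adjusted p = 0.890), with differences of 0.15, 0.10 and 0.03 within prefixes 1, 4 and 5. The libraries are unstranded, and 14.6% of the exon bases of Ctnnb1 are shared with Ulk4 on the other strand, whose counts were at most 2.89% of those of Ctnnb1.

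Ctnnd1 (ENSMUSG00000034101, chr2:84600071-84650765) encodes p120-catenin, which keeps cadherins at the membrane. Its values were 3.86, 4.56, 4.37, 3.81 and 4.04 in Het, and 3.68 to 4.58 with a median of 4.12 in WT. As with Ctnnb1, prefix 4 libraries were highest in each genotype. The log2 fold change was -0.0051 ± 0.16 (SE, 95% interval -0.34 to 0.33, edgeR adjusted p = 0.997).

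Nectin1 (ENSMUSG00000032012, chr9:43743984-43807461) encodes an adhesion molecule that pairs with nectin-3 between ameloblasts and the stratum intermedium in mouse teeth. It had 2.70, 3.58, 3.63, 1.80 and 2.73 in Het, and 2.59 to 3.93 with a median of 3.24 in WT. Het 5-5, with 83 counts, was the lowest of all libraries. The Het mean was 2.89 ± 0.75 (SD of 5 libraries) and the WT mean 3.23 ± 0.47 (SD of 8 libraries), and the log2 fold change of -0.26 ± 0.27 (SE) had the widest 95% interval of the 10 genes, -0.83 to 0.31 (edgeR adjusted p = 0.876). Single libraries moved the value: the log2 fold change was -0.06 without Het 5-5, -0.44 without Het 4-2 and -0.45 without Het 4-5. With the mean of the Y-linked genes as a covariate it was -0.09. Within prefixes 1, 4 and 5 the difference was -0.44, -0.05 and -0.45.

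Nectin3 (ENSMUSG00000022656, chr16:46387706-46498525) encodes the partner of nectin-1. Its values were 6.84, 6.57, 6.86, 6.65 and 7.21 in Het, and 6.78 to 7.28 with a median of 7.13 in WT. Of the Het libraries 4 were below the WT median, and Het 5-6 was above it. The mean was 6.82 ± 0.25 in Het (SD of 5 libraries) and 7.06 ± 0.18 in WT (SD of 8 libraries). The log2 fold change of -0.22 ± 0.12 (SE, 95% interval -0.47 to 0.02) had the smallest p of the 10 (edgeR adjusted p = 0.752), and the difference was negative in each prefix, at -0.13, -0.44 and -0.12. Without the prefix 4 libraries the log2 fold change was -0.09.

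Nectin4 (ENSMUSG00000006411, chr1:171370099-171388598) encodes a nectin of epithelia. It had 6.22, 6.14, 6.61, 5.87 and 6.01 in Het, and 5.32 to 6.32 with a median of 5.87 in WT. Het 4-5 was the highest and WT 4-4 the lowest of all libraries. The mean was 6.17 ± 0.28 in Het (SD of 5 libraries) and 5.88 ± 0.34 in WT (SD of 8 libraries), and the log2 fold change was 0.29 ± 0.15 (SE, 95% interval -0.04 to 0.61, edgeR adjusted p = 0.758). The difference was 0.60 in prefix 4, against 0.12 in prefix 1 and 0.27 in prefix 5. Without the prefix 4 libraries the fitted log2 fold change was 0.09, and without Het 4-5 it was 0.17.

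Afdn (ENSMUSG00000068036, chr17:13760539-13906150) encodes afadin, which binds nectin tails and actin. Its values were 5.04, 5.15, 5.42, 5.24 and 5.36 in Het, and 4.83 to 5.46 with a median of 5.30 in WT. WT 1-1 lay below all other libraries. The log2 fold change was -0.02 ± 0.11 (SE, 95% interval -0.25 to 0.20, edgeR adjusted p = 0.977). Of the 95% intervals of the 10 genes, only those of Nectin1, whose lower bound is 0.563-fold, and Nectin4, whose upper bound is 1.53-fold, reach a change of 1.5-fold in either direction.

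**Figure D3:**
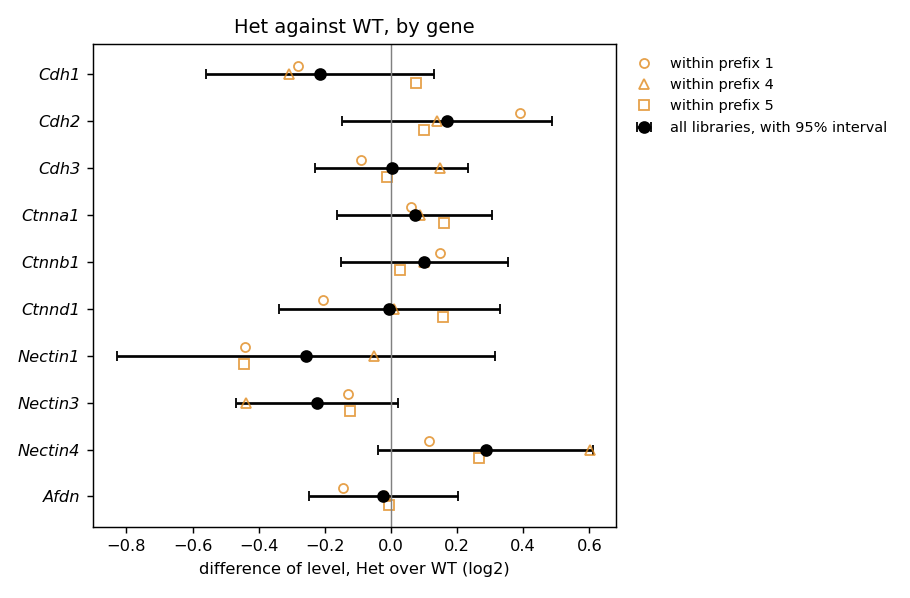
Difference of level, Het over WT (log2), for each gene: black points with bars are edgeR log2 fold changes with 95% intervals, and open symbols are differences of mean log2 CPM within a library prefix. All 10 intervals cross 0, and Nectin3 and Nectin4 lie closest to excluding it, on opposite sides.

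Ratios of counts within a library do not depend on the scaling between libraries, and 5 of them are described here without a test. The log2 ratio of Cdh1 over Cdh2 was 0.85 ± 0.50 in Het (SD of 5 libraries) and 1.21 ± 0.62 in WT (SD of 8 libraries), and that of Cdh1 over Cdh3 was 0.98 ± 0.12 in Het and 1.17 ± 0.44 in WT. The E- to N-cadherin ratio varied widely in WT, between 0.15 in WT 5-1 and 1.90 in WT 4-3, so that the difference of -0.36 lay inside the spread. The log2 ratio of Ctnnb1 over Cdh1 was 0.89 ± 0.20 in Het and 0.60 ± 0.37 in WT.

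The ratio of Nectin1 over Nectin4 showed the largest difference of the 5, -0.64 on the log2 scale. It was -3.54, -2.57, -2.99, -4.10 and -3.29 in the Het libraries, with a mean of -3.30 ± 0.58 (SD of 5 libraries), and ranged from -3.05 to -2.04 in WT, with a mean of -2.66 ± 0.45 (SD of 8 libraries). The ranges of the genotypes overlapped, since the ratio was higher in prefix 4 than in the other prefixes in each genotype. Within each of the 3 prefixes, however, every Het library was below every WT library, with differences of -0.56, -0.65 and -0.72, although prefix 1 holds a single Het library. Such a split in every prefix was seen for 2 of the 45 ratios between any pair of the 10 genes, the other being Cdh3 over Nectin4, and for the log2 CPM of 2.2% of all genes tested and none of the 10. Nectin1 over Nectin4 was among the ratios chosen with earlier results known, so its split is a description of these libraries. The ratio of Nectin1 over Nectin3 did not follow this: its log2 value was -3.95 ± 0.81 in Het and -3.84 ± 0.45 in WT, and its difference was -0.32, 0.39 and -0.33 in prefixes 1, 4 and 5.

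**Figure D4:**
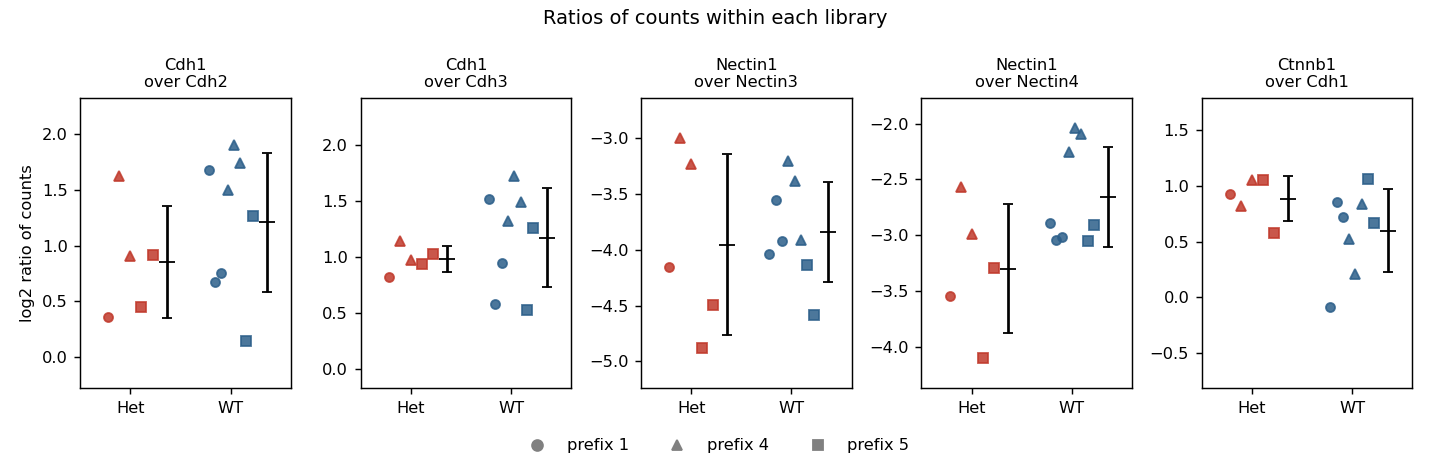
Log2 ratios of counts within each library for 5 pairs of genes, with Het left of WT, the library prefix as the symbol and the mean ± SD in black (n = 5 Het and 8 WT). For Nectin1 over Nectin4, Het points lie below the WT points of the same symbol.

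In a fit with prefix and genotype, Nectin1 (adjusted p = 0.00903), Ctnnd1 (adjusted p = 0.00952) and Ctnnb1 (adjusted p = 0.0200) passed the threshold between prefixes (edgeR, quasi-likelihood test, Benjamini-Hochberg over 16328 genes). That is 3 of 10, where 6.08% of all genes passed. All 3 had their highest mean in prefix 4, as 55.7% of the 992 genes past the threshold had. Ctnnb1 did not pass without Het 4-5 (edgeR adjusted p = 0.0534). Taken without genotype, the prefix held 71.4% of the variance of log2 CPM of Nectin1, 85.4% of that of Ctnnd1 and 82.0% of that of Ctnnb1. For the other genes this share was 1.19% (Nectin3) to 50.9% (Ctnna1). In the fit with genotype, Nectin1 was 1.11 ± 0.19 (SE, log2) higher in prefix 4 than in prefix 5 and 0.66 ± 0.19 higher than in prefix 1. Ctnnd1 was higher in prefix 4 by 0.61 ± 0.11 and 0.45 ± 0.11 in the same 2 contrasts, and Ctnnb1 by 0.37 ± 0.09 and 0.39 ± 0.09.

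For Ctnnb1 the 5 libraries of prefix 4 lay between 7.11 and 7.40 log2 CPM and all others between 6.69 and 6.97, without overlap. Prefix 4 was likewise apart for Ctnnd1, with 4.37 to 4.58 against 3.68 to 4.13 in all others. For Nectin1, the prefix 4 libraries had 3.24 to 3.93, those of prefix 1 had 2.70 to 3.30 and those of prefix 5 had 1.80 to 2.83. Cdh1 also had its highest mean in prefix 4, 6.58 against 6.26 in prefix 1 and 6.07 in prefix 5, but did not pass (edgeR adjusted p = 0.134). Ctnna1 and Cdh2 had their lowest means there, 7.66 and 5.05, and did not pass either (edgeR adjusted p = 0.174 and 0.262). Nectin3 had nearly equal means in prefixes 1, 4 and 5, 6.93, 6.98 and 6.99. Alpha- and beta-catenin, which bind each other in the junction, had opposite signs between prefixes 4 and 1, with -0.31 ± 0.11 for Ctnna1 and 0.39 ± 0.09 for Ctnnb1.

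Other measures moved with the prefix. Markers of dental epithelial stem cells and the cervical loop summed to 451 to 609 CPM in prefix 4. They summed to 396 to 449 CPM in prefix 1 and 306 to 381 in prefix 5. Secretory-stage markers had 147560 to 244890 CPM in prefix 4, 194440 to 269660 in prefix 1 and 266680 to 290340 in prefix 5. Ranges of maturation-stage, stratum intermedium and bone markers overlapped between all prefixes. The part of these lists in the values of the 10 genes was not tested. The markers of fibroblasts and mesenchyme summed to 6437 to 8863 CPM in prefix 1, 6886 to 12109 in prefix 4 and 4526 to 6418 in prefix 5, and with their mean as a covariate, added after seeing the data, Nectin1 still passed (edgeR adjusted p = 0.0124) while Ctnnd1 (0.0514) and Ctnnb1 (0.146) did not. Counts of Y-linked genes were present in all 4 libraries of prefix 5, but in 1 of 5 in prefix 4 and in 1 of 4 in prefix 1. With their mean as a covariate, also added after seeing the data, none of the 10 genes passed (edgeR adjusted p of 0.126 for Nectin1, 0.110 for Ctnnd1 and 0.144 for Ctnnb1), and 13 of all genes passed, against 992 without the covariate. Prefix 5 holds only libraries with Y-linked counts, so the part of the prefix and that of the sex of the mice cannot be told apart there. With genes cut into 5 equal bins by the GC share of their longest transcript, the median log2 difference of prefix 4 over 5 was 0.24 in the bin of highest GC and -0.18 in that of lowest GC. Nectin1, with 59.1% GC, is in the highest bin, while Ctnnb1 (50.3%) and Ctnnd1 (47.9%) are in the middle bin, whose median was -0.02.

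**Figure D5:**
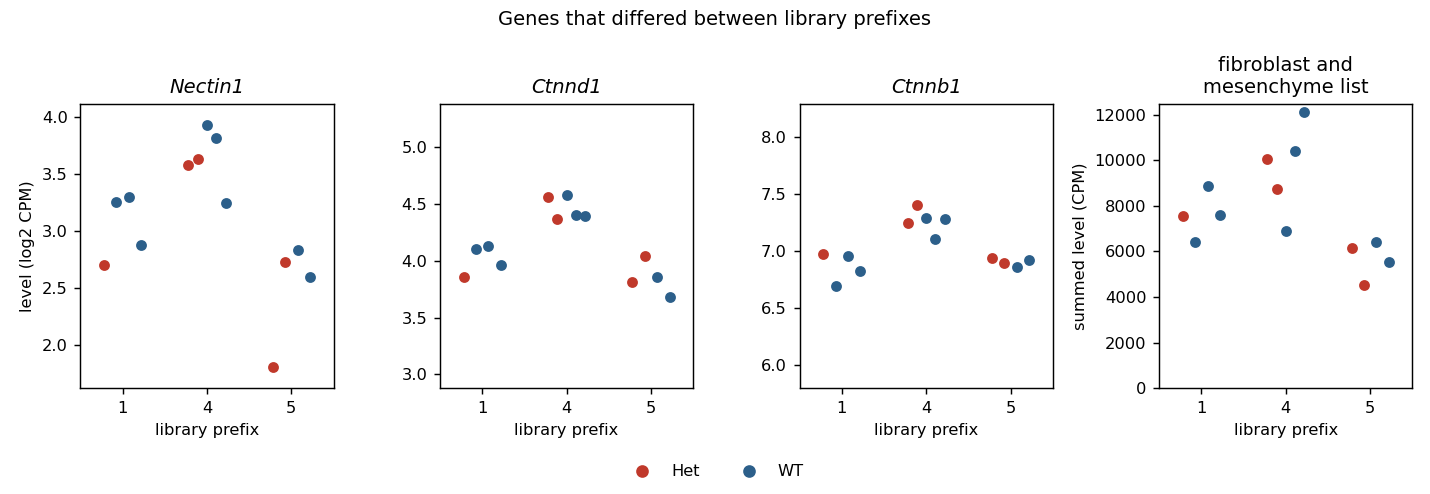
Level (log2 CPM) of Nectin1, Ctnnd1 and Ctnnb1 by library prefix, and the summed level (CPM) of the fibroblast and mesenchyme markers, with 1 point per library. For the 3 genes the highest library of each genotype is in prefix 4, and for Ctnnb1 and Ctnnd1 prefix 4 does not overlap the others.

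Around these genes, 7 lists of junction genes and their regulators held 108 genes tested. None passed between the genotypes (edgeR), 8 had an unadjusted p under 0.05, which is 7.41% against 6.9% of all genes, and the median log2 fold change was -0.03. DESeq2 called 1 of them, Cgn, and limma-voom none. The genes named are the 2 of smallest p in each list, given as values.

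Of 8 other cadherins tested, 2 had a positive and 6 a negative log2 fold change, with a median of -0.06. Cdh15, the M-cadherin of muscle, had -0.998 ± 0.58 (SE), from only 3 to 14 counts in Het and 4 to 56 in WT. Cdh6 had 0.34 ± 0.27. Of the muscle markers, 11 of 11 tested had a negative log2 fold change, against 50.9% of all genes, and none passed (edgeR). They summed to 9.11 to 69.4 CPM in Het and 7.37 to 165 CPM in WT. The 165 CPM were those of WT 1-4 alone, and the next WT library, WT 5-3, had 48.3 CPM, inside the Het range. The part of the muscle markers in the value of Cdh15 was not tested. The 6 other nectins and nectin-like genes were split 3 and 3 (median -0.05), with Pvr, the poliovirus receptor homolog, at -0.14 ± 0.12. Cadm3, with only 4 to 22 counts in Het and 10 to 30 in WT, was at -0.42 ± 0.39. Among 26 other catenins and plaque proteins 11 were positive and 15 negative (median -0.02). Cgn, the tight junction protein cingulin, had 0.88 ± 0.26 log2 CPM in Het and 1.66 ± 0.30 in WT, and -0.81 ± 0.21 (SE) between them, and its ranges did not overlap, but it did not pass the threshold (edgeR adjusted p = 0.223). Ssx2ip, an afadin-binding protein, had 0.46 ± 0.15 (edgeR adjusted p = 0.469). The 11 large and atypical cadherins had a median of -0.03, with Celsr3, which had only 1 to 8 counts in Het and 6 to 21 in WT, at -1.34 ± 0.47 and Celsr1, a planar polarity cadherin, at 0.34 ± 0.15.

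Of 17 regulators of Cdh1 and of epithelial state, 8 were positive and 9 negative (median -0.06). Snai1, a repressor of Cdh1, had 3.84 ± 0.37 log2 CPM in Het and 4.31 ± 0.32 in WT, a difference of -0.47 ± 0.17 (SE, edgeR adjusted p = 0.566), and Tcf4 had -0.16 ± 0.09. Of 18 proteases and turnover genes, 10 were positive and 8 negative (median 0.02), with Furin, a protease that cleaves the propeptide of E-cadherin, at -0.48 ± 0.27 and Adam15 at -0.23 ± 0.16. The 22 genes of the beta-catenin destruction complex, partners and targets had 8 positive and 14 negative values (median -0.10), with Apc2 at -0.62 ± 0.38 and Gsk3a, a kinase that marks beta-catenin for degradation, at -0.32 ± 0.21.

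Between prefixes, 15 of the 108 genes passed (13.9%, against 6.08% of all genes), and 14 of them were higher in prefix 4 than in prefixes 1 and 5, against 55.4% of all genes that passed. None of the other cadherins, nectins or regulators of Cdh1 was among them. In the list of plaque proteins 4 passed. Those of smallest p were Tln1 (talin), Tjp1 (ZO-1) and Arvcf, a relative of p120-catenin, with edgeR adjusted p of 0.0100, 0.0388 and 0.0438. Tjp1 was the 1 gene that did not have its highest value in prefix 4, with -0.24 ± 0.11 (SE) for prefix 4 over 5. Among atypical cadherins Dchs1, Fat2 and Fat1 passed (edgeR adjusted p of 0.00508, 0.00891 and 0.0361), and among proteases Mmp14, Furin and Adam15 (0.00229, 0.0103 and 0.0216). In the beta-catenin list 5 genes passed, with Lef1, Ccnd1 and Gsk3a of smallest p (edgeR adjusted p of 0.0164, 0.0187 and 0.0211). Lef1 is a DNA-binding partner of beta-catenin and Ccnd1 a target. The measures that moved with the prefix for Nectin1, Ctnnd1 and Ctnnb1 stand beside these genes as well, and their part in them was not tested.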

How the data were processed

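The authors deposited raw counts for 48709 mouse genes and 24 spike-in and transgene features in 13 libraries, from which all tests start. Per the submitters' processing notes, STAR 2.5.2a and genome build GRCm38 were used, and per the labels' protocols the libraries are unstranded and were read in separate runs. The sources used here do not name the counter. The authors also deposited a normalized signal, CPM with TMM scaling per the table's name, which was used only as a check: it was 0.996 to 1.00 times the CPM used here for the 10 genes. The 24 other features (at most 0.000177% of counts) were left out.

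Genes were kept by filterByExpr (count minimum 10) and tested with edgeR 4.0.16 in R 4.3.3 (TMM, robust quasi-likelihood, Benjamini-Hochberg, threshold 0.05), for Het against WT and, with genotype in the fit, between library prefixes. The common biological coefficient of variation was 0.227. SE were taken from the F statistic. Levels are log2 CPM with a prior count of 2. DESeq2 1.42.0 and limma 3.58.1 were alternatives, beside other factors, filters, covariates and left-out libraries. Columns name the genotype but no replicate number. Symbols, positions and exon lengths come from GENCODE M21 (GRCm38). The lowest chi-square between 78 library pairs was 10.5 per gene, so no library repeats another.

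The 10 genes, the lists and the 5 ratios were chosen with earlier results of these data known. The genes named are the 10, and in each list up to 3 past the threshold or else the 2 of smallest p. Among the lists 1 symbol, Eplin, was not matched, being an older name of Lima1, which is in the same list. The edgeR fit was also run on simulated data with known changes, and the outcome is not reported here, so it is no support for the results above. A further gene list is not reported here.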

Additional observations from a re-analysis of the deposited data

Results flagged for a closer look

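Afdn in WT 1-1, at 4.83 log2 CPM, lay apart from the other WT libraries, whose nearest value was 5.19. The gap was 0.573 of the range of the 8 libraries, above the critical value of 0.526. This was 1 of 30 sets of values looked at (10 genes and 5 ratios in each genotype), and chance flags about 5% of such sets. Without WT 1-1 the log2 fold change of Afdn was -0.08.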

How the results depend on the processing

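No paired analysis was possible because the columns carry no replicate number of the labels. The library prefix, which the genotypes share, was used as a term instead. Between genotypes none of the 10 genes passed under any of 25 alternatives (12 other fits and 13 that left out 1 library). Cdh1, Cdh2, Ctnna1, Ctnnb1, Nectin1, Nectin3 and Nectin4 kept their direction in all 25, with adjusted p between 0.432 and 0.996, but their sizes moved by over 1.5 times under some. The log2 fold change ranged from -0.29 (without WT 5-1) to -0.11 (Y-linked covariate) for Cdh1, 0.09 (without Het 1-2) to 0.28 (without Het 4-2) for Cdh2, 0.02 (without prefix 5) to 0.14 (without prefix 1) for Ctnna1 and 0.02 (without Het 4-5) to 0.18 (without prefix 5) for Ctnnb1. It ranged from -0.52 (without prefix 4) to -0.06 (without Het 5-5) for Nectin1, -0.33 (without Het 5-6) to -0.09 (without prefix 4) for Nectin3 and 0.09 (without prefix 4) to 0.42 (without prefix 1) for Nectin4. Afdn, Cdh3 and Ctnnd1, whose values were near 0, changed sign in 3, 10 and 12. With 1 library left out they ranged from -0.07655 to 0.02962 (Afdn), -0.0347 to 0.07004 (Cdh3) and -0.1289 to 0.07466 (Ctnnd1). Cdh3 was negative with limma-voom (-0.01947), with the fibroblast and mesenchyme covariate (-0.001625) and without prefix 4 (-0.07997). Ctnnd1 was positive with no filter (0.0008192), prefix as a term (0.00664), the Y-linked covariate (0.08236), the fibroblast and mesenchyme covariate (0.02003) and without prefix 1 (0.008566) or 5 (0.02404). The cause was not tested.

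Over all genes, 14 passed between genotypes, 27 with no filter, 25 with at least 1 CPM in 5 libraries, 74 with DESeq2, 25 with limma-voom, 30 with prefix as a term, 31 with the fibroblast and mesenchyme covariate, 0 without prefix 1, 1 without prefix 4, 2 without prefix 5 and 6 to 22 with 1 library left out. Between prefixes 992 passed, 1866 with no filter, 2102 with DESeq2, 1900 with limma-voom, 167 with the fibroblast and mesenchyme covariate, 13 with the Y-linked covariate and 280 to 1466 with 1 library left out. Of the 10 genes 3 passed between prefixes, 1 with the fibroblast and mesenchyme covariate, 0 with the Y-linked covariate and 2 to 4 with 1 library left out. Nectin1 passed in 20 of 21 alternatives, Ctnnd1 in 19 and Ctnnb1 in 18. Ctnnb1 missed without Het 4-5 (adjusted p = 0.0534). Cdh1 passed in 3 (no filter, limma-voom and without WT 1-1). Nectin1 had as few as 83 counts in a library, which limits its precision.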
